A study of Homo sapiens with 2 samples.

Results

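The miR-183 cluster is a group of 3 microRNA genes that lie together on chromosome 7 and are transcribed as 1 precursor. Its members were taken by name, as every listed mature miRNA whose name without the arm is miR-182, miR-183 or miR-96. This gave 6 of the 793 mature miRNAs in the table, a 5p and a 3p arm from each of the 3 hairpins. The miRNAs were sequenced from exosomes, small vesicles that cells shed, purified from the culture medium of 2 human liver cancer lines. MHCC97H is a hepatocellular carcinoma line kept for its high metastatic capacity, and HepG2 is a liver cancer line that carries the same tumor label here. Both lines were grown in DMEM with serum freed of exosomes, received no treatment that the labels mention, and gave 1 library each. The comparison asks how the cargo of the vesicles differs between the 2 lines, and with a single library per line neither replicate spread nor a test between lines can be given.

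A miRNA hairpin is cut into a short duplex, and usually 1 strand, the guide, is loaded onto an Argonaute protein while the other, the passenger, is broken down. The guide finds target mRNAs mainly through its seed, a short stretch near the 5′ end. The miR-183 cluster is best known from sensory cells, where changes in the miR-96 seed cause hereditary hearing loss in humans and mice. In tumors of many epithelia, the liver among them, its 3 guides are often raised. miR-182 and miR-96 repress FOXO1, a transcription factor that slows growth, and miR-183 represses the transcription factor EGR1.

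The 3 guides are all 5p arms, and their sequences are shown because their seeds are close but not equal. The mature sequences are from RefSeq (GRCh38.p14), written 5′ to 3′, with the seed (bases 2 to 8) in capitals.
hsa-miR-182-5p: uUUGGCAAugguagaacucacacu
hsa-miR-183-5p: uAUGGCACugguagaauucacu
hsa-miR-96-5p: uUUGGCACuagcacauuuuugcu
miR-182-5p and miR-96-5p are identical over their first 7 bases and their seeds share 6 bases by position. miR-183-5p shares 5 seed bases with miR-182-5p and 6 with miR-96-5p. Counted from the 5′ end, miR-182-5p and miR-183-5p have the same base at 18 of 22 positions, with a longest common run of 8 bases. No seed of the 6 arms is shared within the cluster.

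The 3p arms, the passengers, are unlike each other and are shown as the strands whose reads give the arm use.
hsa-miR-182-3p: uGGUUCUAgacuugccaacua
hsa-miR-183-3p: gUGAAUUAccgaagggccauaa
hsa-miR-96-3p: aAUCAUGUgcagugccaauaug
Over the 704 listed miRNAs with a sequence in the RefSeq table, the longest run that any of the 6 arms had in common with another listed miRNA was 10 bases, between miR-182-3p and miR-4802-5p. No 5p arm had a common run of more than 9 bases with another of these miRNAs.

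The hairpins lie on the minus strand of chromosome 7 (GRCh38, GENCODE release 29), MIR183 at 129774905 to 129775014, MIR96 at 129774692 to 129774769 and MIR182 at 129770383 to 129770492. MIR183 and MIR96 are 135 bases apart, and MIR182 follows 4199 bases further downstream. None of the 3 overlaps another annotated gene, and the nearest coding genes are NRF1 on the plus strand and UBE2H on the minus strand. These coordinates place the genes and were not used in counting.

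The libraries differed 13.3-fold in depth, with 304457 miRNA reads in MHCC97H and 22831 in HepG2. Levels are given in CPM, counts scaled to a common total of miRNA reads, so 1 read is worth 43.8 CPM in HepG2 and 3.28 CPM in the deeper library. Where a miRNA has no read, up to 3 reads could have been missed by chance, and this limit stands at 131 CPM for HepG2 and 9.85 CPM for MHCC97H. All intervals are exact 95% intervals and, like this limit, cover counting error only. Depth and library preparation cannot be told apart from the cell line. The hepatocyte miRNA miR-122-5p was present in both libraries, at 979 CPM in MHCC97H and 1051 CPM in HepG2. The other hepatocyte markers leaned to HepG2. By the rule given with the cluster's calls, miR-885-5p, miR-194-5p, miR-148a-3p and miR-192-5p were higher there. These were 4 of 5 compared, where 9.02% of all miRNAs compared were higher in HepG2. Of the 4, miR-885-5p had 8 reads in HepG2 and 0 in MHCC97H, so it was compared only through HepG2. Summed, the 6 listed markers stood at 30664 CPM in MHCC97H and 158162 CPM in HepG2, a ratio of 0.194 (0.187 to 0.202), against the direction of the cluster. Most of this sum was miR-148a-3p, at 26976 CPM in MHCC97H and 142438 CPM in HepG2. The values are shares of each library's miRNA reads, so they measure neither the number of vesicles nor the amount of miRNA per vesicle.

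The MHCC97H library held more of all 3 guides than the HepG2 library. miR-182-5p had 2918 reads in MHCC97H and 26 in HepG2, which is 9584 CPM (9240 to 9938) against 1139 CPM (744 to 1669). It was the 23rd most abundant miRNA in MHCC97H, and in HepG2 it shared the 80th place. The ratio of its levels was 8.42 (5.73 to 12.9), the highest of the 3 guides. At equal CPM, its MHCC97H count would have corresponded to 219 reads in HepG2.

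miR-183-5p had 1176 reads in MHCC97H and 25 in HepG2, or 3863 CPM (3645 to 4090) against 1095 CPM (709 to 1616). Its ratio was 3.53 (2.38 to 5.47), the lowest of the 3, and equal CPM would have corresponded to 88.2 HepG2 reads. miR-96-5p, the rarest guide in both libraries, had 499 reads against 7. Its level was 1639 CPM (1498 to 1789) in MHCC97H and 307 CPM (123 to 632) in HepG2. The ratio was 5.35 (2.58 to 13.4), where equal CPM would have corresponded to 37.4 HepG2 reads. The ratio interval of each of the 3 guides excluded equal levels, and with a 2-fold size this makes a call. Calls toward MHCC97H were common at this abundance, at 49.6% of the 137 miRNAs averaging 500 CPM or more.

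**Figure D1:**
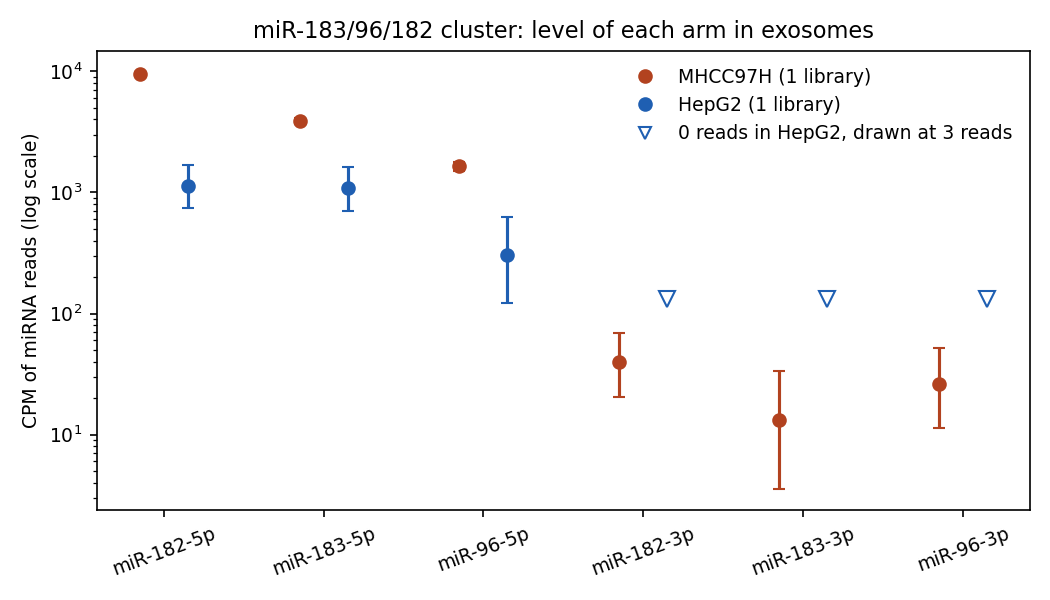
Level of each arm of the cluster in CPM of miRNA reads (log scale) in the MHCC97H and the HepG2 library, with exact 95% Poisson intervals; open triangles mark 0 reads in HepG2, drawn at the level of 3 reads. The 3 guides are higher in MHCC97H, and the 3 passengers lie below what the HepG2 depth can show.

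The 3 passengers were found in MHCC97H and had no read in HepG2. miR-182-3p had 12 reads, or 39.4 CPM (20.4 to 68.8), miR-96-3p had 8 reads, or 26.3 CPM (11.3 to 51.8), and miR-183-3p had 4 reads, or 13.1 CPM (3.58 to 33.6). All 3 levels are under the 131 CPM that a HepG2 count of 0 allows. At equal CPM the HepG2 library would have held 0.900 reads of miR-182-3p, 0.600 of miR-96-3p and 0.300 of miR-183-3p. A difference between the lines was therefore not detectable for the passengers at this depth, and no fold is given for them.

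All 6 members reached 10 CPM in at least 1 library, the level required of a miRNA to be compared. By the rule of a difference of 2-fold or more whose interval excludes equal levels, the 3 guides were higher in MHCC97H, no member was higher in HepG2, and the 3 passengers met neither direction. Over the 543 miRNAs compared, this rule called 20.4% higher in MHCC97H and 9.02% higher in HepG2. Among the 137 miRNAs averaging 500 CPM or more, which are closer in level to the guides, it called 49.6% higher in MHCC97H and 18.2% in HepG2. Of those 137, 26 had a larger log2 ratio than miR-182-5p, 36 than miR-96-5p and 48 than miR-183-5p. By size alone, without the interval, all 6 members counted toward MHCC97H, beside 51.7% of all miRNAs, with 25.2% toward HepG2. For the 3 passengers this is set by the pseudocount, since they had no HepG2 read and reached 10 CPM only through MHCC97H, so it gives no direction. A direction toward MHCC97H was thus common among miRNAs of this abundance, and 3 of 3 guides is read against that share.

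The median log2 ratio, computed on CPM plus 1, was 1.12 over the 543 miRNAs and 0.99 over the 137. Of the 543, 362 had a HepG2 read. The rest passed only through MHCC97H, and their ratios, set by the pseudocount, all lie toward MHCC97H. They raise the median of 1.12, so it is not a measured shift between the libraries. Relative to these medians, miR-182-5p was 3.88-fold (2.64 to 5.95) and 4.23-fold (2.88 to 6.48) higher in MHCC97H, and miR-96-5p was 2.47-fold (1.19 to 6.16) and 2.69-fold (1.29 to 6.72) higher. miR-183-5p was then 1.63-fold (1.10 to 2.52) and 1.77-fold (1.19 to 2.75) higher, under the 2-fold size. Over the 332 miRNAs with reads in both libraries the median log2 ratio was 0.00. There the detection limit of HepG2 leaves out miRNAs that only the deeper library can show. The call of miR-183-5p thus depended on which miRNAs were taken as the common scale, while those of miR-182-5p and miR-96-5p held under every scaling tried.

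Summed over its 6 arms, the cluster took 4617 reads in MHCC97H and 58 in HepG2. This was 1.52% of miRNA reads (1.47 to 1.56%) in MHCC97H and 0.254% (0.193 to 0.328%) in HepG2, a ratio of 5.97 (4.61 to 7.87). The 5p arms made up 4593 of the MHCC97H reads and all 58 of the HepG2 reads.

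**Figure D2:**
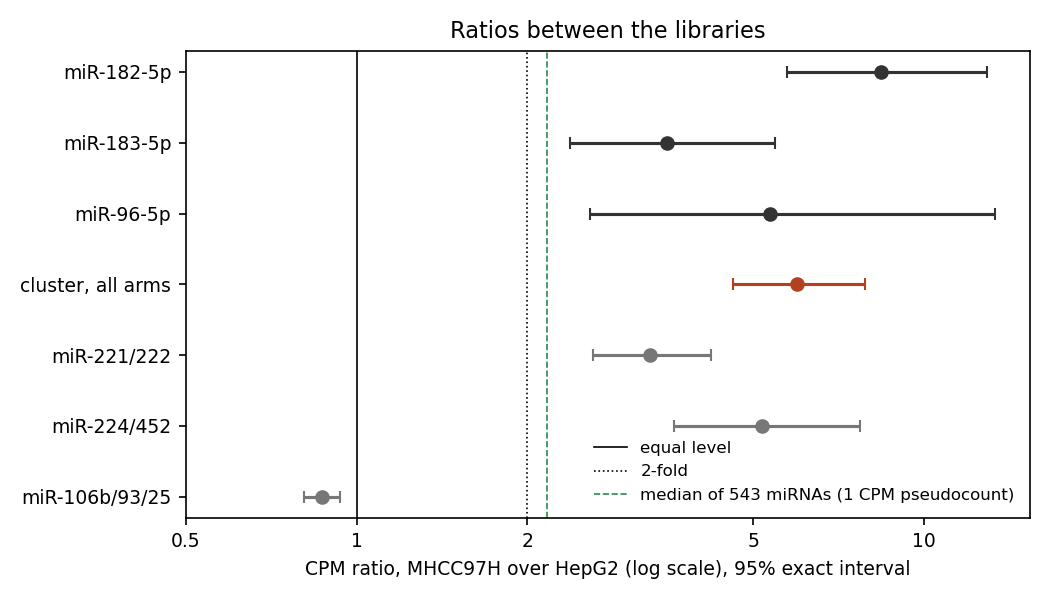
CPM ratio of MHCC97H over HepG2 (log scale) with exact 95% intervals for the 3 guides, the summed cluster and 3 other miRNA groups. The cluster lies at 5.97, to the right of the 2-fold line and of the median of all 543 miRNAs, and the group of miR-106b, miR-93 and miR-25 lies at 0.868. That median includes miRNAs with no HepG2 read, whose ratios are set by the pseudocount.

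The proportions among the guides do not depend on how the libraries are scaled, and they differed between the libraries for 1 pair. In MHCC97H, miR-182-5p led with 63.5% of the cluster's 5p reads (62.1 to 64.9%), followed by miR-183-5p with 25.6% (24.3 to 26.9%) and miR-96-5p with 10.9% (9.98 to 11.8%). All neighbours in this order were apart by more than counting error. In HepG2, miR-182-5p had 44.8% (31.7 to 58.5%) and miR-183-5p had 43.1% (30.2 to 56.8%), so their order could not be set. miR-96-5p was last with 12.1% (4.99 to 23.3%).

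There were 2.48 reads of miR-182-5p for each read of miR-183-5p in MHCC97H (2.32 to 2.66) and 1.04 in HepG2 (0.577 to 1.88). The odds ratio between the libraries was 2.39 (1.32 to 4.32), an interval that excludes equal proportions. For miR-182-5p over miR-96-5p the reads stood at 5.85 to 1 in MHCC97H and 3.71 to 1 in HepG2, with an odds ratio of 1.57 (0.574 to 3.75). For miR-183-5p over miR-96-5p they stood at 2.36 to 1 and 3.57 to 1, with an odds ratio of 0.660 (0.239 to 1.58). Both of these intervals include equal proportions and are wide, since they rest on 7 HepG2 reads of miR-96-5p. Of the 3 pairs compared, 1 differed, and these intervals are not adjusted for the number of pairs.

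**Figure D3:**
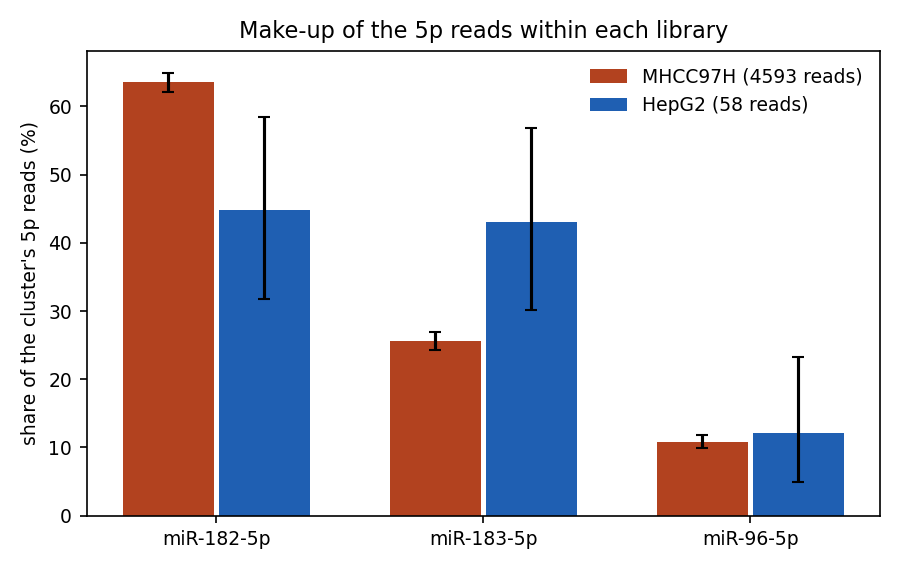
Share of each guide among the cluster's 5p reads (percent) in the MHCC97H and HepG2 libraries, with exact 95% binomial intervals. miR-182-5p takes 63.5% in MHCC97H, and in HepG2 miR-182-5p and miR-183-5p take 44.8% and 43.1%.

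Arm use was strongly toward 5p for all 3 hairpins in MHCC97H, the library deep enough to show it. The 3p arm held 0.410% of the reads of miR-182 (0.212 to 0.714%), 0.339% of those of miR-183 (0.0924 to 0.866%) and 1.58% of those of miR-96 (0.684 to 3.09%). In reads this was 243 of 5p for each of 3p at miR-182, 294 at miR-183 and 62.4 at miR-96. The 3p share of miR-96 was above that of miR-182, with an odds ratio of 3.90 (1.37 to 10.4), and above that of miR-183, with an odds ratio of 4.71 (1.25 to 21.5). miR-182 and miR-183 could not be told apart (odds ratio of miR-183 over miR-182 0.827, 0.194 to 2.74).

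For comparison, 100 hairpins in MHCC97H had both arms listed under 1 name and at least 100 reads. Their less abundant arm held a median of 5.63% of the reads, with quartiles at 1.53 and 19.7%. Lower shares than that of miR-183 were found in 9 of these hairpins, than that of miR-182 in 11 and than that of miR-96 in 25. In HepG2, 0 of 26 miR-182 reads, 0 of 25 miR-183 reads and 0 of 7 miR-96 reads were 3p. The exact intervals allow 3p shares of up to 13.2%, 13.7% and 41.0%. At the MHCC97H shares, HepG2 would have held 0.107, 0.0850 and 0.112 such reads, so arm use could not be compared between the lines.

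**Figure D4:**
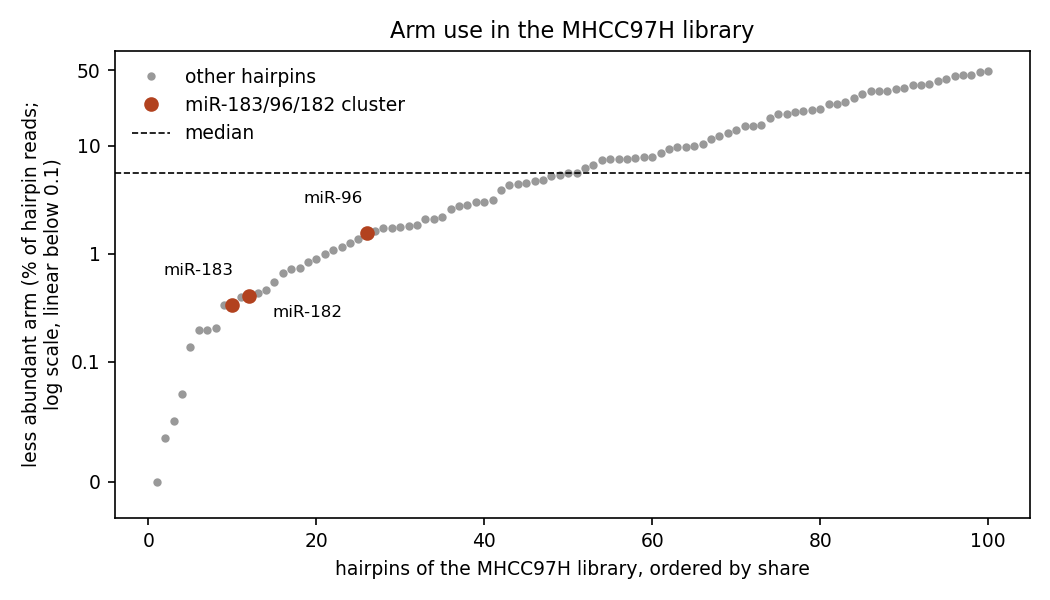
Share of the less abundant arm (percent of hairpin reads, log scale that is linear below 0.1) for the 100 hairpins of the MHCC97H library with both arms listed and at least 100 reads, ordered by that share. miR-183 and miR-182 lie near the low end and miR-96 at 1.58%, all below the median of 5.63%.

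The cluster was set beside 3 other miRNA groups by the ratio of their ratios, which does not depend on scaling. miR-221 and miR-222, a pair that represses the cell cycle inhibitor CDKN1B, had a summed ratio of 3.29 (2.61 to 4.21), and the cluster's ratio was 1.81 times as large (1.26 to 2.61). Taken singly, miR-182-5p exceeded that summed ratio 2.56-fold (1.61 to 4.18), while miR-183-5p was level with it at 1.07 (0.669 to 1.77) and miR-96-5p stood at 1.62 (0.744 to 4.21). The arms of the pair differed, and the sum was carried by miR-221-3p, at 2.28 (1.75 to 3.02). miR-222-3p stood at 5.93 (3.52 to 10.9), close to the cluster's 5.97. miR-221-5p stood at 23.6 (4.21 to 936) and miR-222-5p at 3.90 (0.670 to 157), each on 1 HepG2 read. miR-224 and miR-452, which share a host gene and are also raised in liver cancer, had a summed ratio of 5.19 (3.62 to 7.71). The cluster's ratio was 1.15 times theirs (0.713 to 1.82), an interval that includes equal ratios and differences of over 1.5-fold. The cluster of miR-106b, miR-93 and miR-25 lies in the MCM7 gene, also on chromosome 7, and promotes proliferation. Its summed ratio was 0.868 (0.807 to 0.935), and the ratio of the miR-183 cluster was 6.88 times as large (5.25 to 9.16). Its members split, however. The largest part of the sum in both libraries was miR-25-3p, at 0.980 (0.881 to 1.09). Next came miR-106b-3p in MHCC97H, at a ratio of 1.55 (1.27 to 1.91), and miR-93-5p in HepG2, at 0.378 (0.334 to 0.430). miR-106b-5p stood at 1.87 (1.22 to 3.01) and miR-25-5p at 11.6 (2.06 to 462) on 1 HepG2 read. miR-93-3p had 28 reads in MHCC97H and 0 in HepG2.

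Other miRNA genes of the same region of chromosome 7 showed no call in either direction. Of 8 listed arms of miR-29a, miR-29b, miR-129 and miR-335, all 8 were compared and none was higher in either line by the rule, where 20.4% and 9.02% of all miRNAs compared were. Of the 8, 5 had no HepG2 read, on 43 or fewer reads in MHCC97H, so the depth allowed little for them to be called. The most abundant, miR-29a-3p, which represses collagens, had 3055 CPM in MHCC97H and 2759 CPM in HepG2, a ratio of 1.11 (0.857 to 1.45). miR-29b-3p had 1173 against 832 CPM, a ratio of 1.41 (0.889 to 2.37). It also has a hairpin on another chromosome, as has miR-129-5p, and miR-29b-2-5p comes from such a copy alone. The other arms had 43 MHCC97H reads or fewer and at most 1 read in HepG2, among them miR-335-3p with 43 against 0. The summed ratio of the 8 arms was 1.25 (1.01 to 1.59), against 5.97 for the cluster.

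The seed of miR-96-5p recurs in 1 other human miRNA of the RefSeq table, miR-1271-5p. It is shown for the shared seed, in capitals.
hsa-miR-1271-5p: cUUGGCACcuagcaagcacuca
It had 1 read in MHCC97H and 0 in HepG2, so nearly all reads with this seed were miR-96-5p. The seeds of miR-182-5p and miR-183-5p were not found in any other human miRNA of that table.

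Other miRNAs reported to repress FOXO1 were called in both directions. Of 6 compared, miR-27a-3p was higher in MHCC97H, miR-135b-5p and miR-9-5p were higher in HepG2, and 3 were called in neither direction. With 6 miRNAs, these counts are too small to set apart from the 20.4% and 9.02% called over all miRNAs compared. miR-27a-3p had 9712 CPM against 1664 CPM, a ratio of 5.84 (4.24 to 8.26). miR-135b-5p had 16 reads in MHCC97H and 21 in HepG2, or 52.6 against 920 CPM. miR-9-5p had 51 reads against 12, or 168 against 526 CPM. miR-486-5p, at 8313 and 4205 CPM, stayed just under 2-fold with a ratio of 1.98 (1.61 to 2.45). miR-223-3p had 174 against 394 CPM and miR-370-3p 46.0 against 87.6 CPM, on 9 and 2 HepG2 reads. The median log2 ratio of these 6, all with reads in both libraries, was -1.04, beside 0.00 over the 332 miRNAs with reads in both.

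The 5 miRNAs closest to miR-182-5p in level were found by distance on log2 CPM plus 1 over the 2 libraries, among 204 others with at least 3 HepG2 reads. They were miR-21-3p (8530 and 1533 CPM in MHCC97H and HepG2), miR-27a-3p, miR-24-3p (10350 and 1708 CPM), let-7b-5p (8264 and 701 CPM) and miR-99b-5p (5485 and 1270 CPM). Neither miR-183-5p nor miR-96-5p was among them. With only 2 libraries this is a description of level and ratio alone.

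Both libraries also held marker miRNAs of blood, mesenchymal and endothelial cells, and their part in the result was not tested. The 4 red cell arms, miR-451a, miR-486-5p, miR-144-3p and miR-144-5p, summed to 12310 CPM in MHCC97H and 25317 CPM in HepG2, and none was at 0. The defining marker miR-451a had 2716 CPM in MHCC97H and 20104 CPM in HepG2, against the direction of the cluster. miR-486-5p ran in the cluster's direction, at 8313 CPM in MHCC97H and 4205 CPM in HepG2, a ratio of 1.98 (1.61 to 2.45) that stayed under 2-fold. miR-144-3p and miR-144-5p were called in neither direction, at ratios of 1.98 (0.827 to 6.20) and 1.07 (0.667 to 1.84). The 4 leukocyte arms summed to 2204 CPM in MHCC97H and 5168 CPM in HepG2, the 4 mesenchymal arms to 18374 and 21331 CPM, and the 2 endothelial arms to 6507 and 7227 CPM. All 4 lists were lower in MHCC97H by their sums, the endothelial one within counting error (ratio 0.900, 0.768 to 1.06), and none of their members was at 0 in either library. In each of the 4 lists 1 member was called higher in HepG2, namely miR-451a, miR-142-3p, miR-145-5p and miR-126-5p. None was called higher in MHCC97H, and the other members were called in neither direction. Over all compared miRNAs the shares were 9.02% toward HepG2 and 20.4% toward MHCC97H. The call of miR-145-5p rested on 6 reads in MHCC97H and 3 in HepG2. Most of the mesenchymal sum was miR-143-3p, at a ratio of 0.871 (0.793 to 0.959). Most of the endothelial sum was miR-126-3p, at 1.04 (0.872 to 1.24). Of the uncalled leukocyte arms, miR-142-5p stood at 0.813 (0.601 to 1.13), miR-223-3p at 0.442 (0.216 to 1.02) and miR-150-5p at 1.14 (0.424 to 4.33).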

How the data were processed

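The deposited table gives, per the file headers, unnormalized counts of reads for each mature miRNA, with a column for each library. Per the submitters' processing notes, cutadapt and Bowtie were used. Their versions and mismatch setting, the genome build and the miRBase release were not given in the sources used here, so reads split between near-identical miRNAs could not be checked. Per the labels' protocols, TRIzol RNA went into an NEBNext small RNA kit with size selection. No molecular identifiers are described, so reads are not independent molecules. The table has 915 rows for 793 names. It repeats 78 names, none of them a member, and the highest count of a repeated name was used.

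CPM was computed from the summed counts. Folds are plain CPM ratios with a Clopper-Pearson interval on the split of reads between libraries. Ratios of ratios are odds ratios with exact conditional intervals. Comparison required 10 CPM or more in either library. It was called at 2-fold or more, on CPM plus 1, with a 95% interval excluding equal levels. The rule was tested on simulated counts that held counting error only, so spread between libraries was not tested. The miRNAs named were the members, seed relatives, the listed groups and markers, and the 5 nearest to miR-182-5p. The members and lists were chosen with earlier results of these data known. The background at 500 CPM was chosen after seeing the data. Sequences are from RefSeq. edgeR 4.0.16 in R 4.3.3 gave the trimmed-mean scaling. Intervals used scipy 1.17.1 under Python 3.11.15, tables pandas 2.3.3 and numpy 2.4.6, and figures matplotlib 3.10.9.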

Additional observations from a re-analysis of the deposited data

How the results depend on the processing

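No paired analysis was possible because each cell line has 1 library, and no library could be left out. The cluster's ratio of 5.97 moved to 3.76 (2.91 to 4.97) when the 10 most abundant miRNAs of either library were kept out of the total. It was 2.75 (2.13 to 3.63) and 3.00 (2.32 to 3.96) with centring on the miRNAs at 10 CPM or more and on those averaging 500 CPM, both chosen after seeing the data. In the same order, the log2 ratio was 2.41, 1.96 and 2.08 for miR-182-5p and 1.15, 0.70 and 0.83 for miR-183-5p. That of miR-96-5p was 1.30 with the first centring. The first centring includes miRNAs with no HepG2 read, whose ratios are set by the pseudocount. The direction of the guides did not change under any setting tried. By size alone, without the interval, 6 members rather than 3 counted toward MHCC97H, the added 3 being 3p arms with no HepG2 read, whose value is set by the pseudocount. With zero counts set to 3 reads, the 3p arms had log2 values of -1.74 (miR-182-3p), -3.32 (miR-183-3p) and -2.32 (miR-96-3p), which are bounds with no direction. Calls in MHCC97H were 69.4% of all calls with library totals, 49.7% with the total without the most abundant, 61.0% with repeated names summed, and 35.8% and 40.8% with the centrings. The HepG2 library held 58 reads of the cluster, which limits the precision of every ratio given.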
